A study of Mus musculus with 6 samples.

Results

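The keratin genes Krt5, Krt7, Krt8, Krt14, Krt15, Krt17, Krt18, Krt19 and Krt20 and the vimentin gene Vim were examined in mouse mammary tumour cells made to express IRF7. These 10 genes were chosen by name, as intermediate filament genes of luminal, basal and mesenchymal cells, among 27670 gene names on the array. Each had at least 1 probe, and the 10 genes had 13 probes in all. After probes near background were left out, 7 of the 10 genes were tested among 15414 genes.

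The 2 groups were 4T1.2 cells carrying the pMSCV retroviral vector with Irf7, a transcription factor gene of the type I interferon response (the IRF7 cells), and 4T1.2 cells carrying the empty vector (the base-vector cells). 4T1.2 is a bone-metastasising line from a BALB/c mammary tumour. For both groups the virus was packaged in HEK-293 cells, and the transduced cells were selected with puromycin, cloned as single cells and pooled from several clones, then grown in culture without further treatment. Each group is therefore 1 pooled population, and per the design text the 3 arrays of each group are 3 separate experiments. A p-value here covers only the spread among such cultures.

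Keratins are the intermediate filament proteins of epithelial cells, and a filament needs a type I partner (Krt14, Krt15, Krt17, Krt18, Krt19 or Krt20) and a type II partner (Krt5, Krt7 or Krt8). In the mammary gland the luminal cells that line the ducts are known for Krt7, Krt8, Krt18 and Krt19, and the basal cells around them for Krt5, Krt14 and Krt17. Vimentin is the filament protein of mesenchymal cells and is also made by many carcinoma cells in culture.

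The arrays measured these genes through probes of 60 bases. Sequences are shown for some of these probes. Among them are the second Krt7 probe, which read the change of that gene at another place, and the pair of Krt8 and Krt18 probes that share letters. The others are the Krt14 probe, whose letters lie over 606 bases of the genome, and the second Vim probe, which did not follow the first. The brightest Krt7 and Krt8 probes and the Krt17 probe, which carry the calls below, are not printed. The sequences are written 5′ to 3′ as the deposited files give them. Capitals mark the run of 11 bases that the second Krt8 probe and the Krt18 probe have in common. It was the longest run shared by any 2 of the 13 probes, and the next longest was 8 bases.
Krt7 second probe (A_52_P410685, mm7 chr15:101409444-101409503, plus strand): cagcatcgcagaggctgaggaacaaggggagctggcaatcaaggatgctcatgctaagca
Krt8 second probe (A_51_P242399, mm7 chr15:101983072-101983131, minus strand): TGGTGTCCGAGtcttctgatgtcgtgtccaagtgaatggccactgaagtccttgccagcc
Krt18 probe (A_51_P324814, mm7 chr15:102018067-102018126, plus strand): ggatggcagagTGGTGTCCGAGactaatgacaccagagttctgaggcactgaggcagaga
Krt14 probe (A_51_P506417, mm7 chr11:100312408-100313013, minus strand): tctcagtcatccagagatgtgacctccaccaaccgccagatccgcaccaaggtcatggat
Vim second probe (A_52_P287532, mm7 chr2:13516297-13516356, plus strand): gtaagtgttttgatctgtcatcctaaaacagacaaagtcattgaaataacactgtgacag

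Positions are those of the array files, on mouse build mm7. The brightest Krt7 probe (A_51_P312348) lies on chromosome 15 at positions 101413898 to 101413957, the brightest Krt8 probe (A_51_P242400) on the same chromosome at 101982940 to 101982999 and the Krt5 probe (A_51_P186856) at 101693240 to 101693299. The Krt17 probe (A_51_P433450) lies on chromosome 11 at 100365309 to 100365368, and the brightest Vim probe (A_51_P392687) on chromosome 2 at 13521763 to 13521822. Of the other type I genes, Krt15 (A_51_P482128), Krt19 (A_51_P356642) and Krt20 (A_52_P445360) are also on chromosome 11. The 2 Krt7 probes lie 4454 bases apart, the 2 Krt8 probes 132 bases and the 2 Vim probes 5466 bases. Whether a probe lies in an exon, an intron or an untranslated region was not looked up, because no annotation of that build was used here.

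Values are given as the processed signal, the scanner's background-subtracted intensity on a linear scale, for replicates 1, 2 and 3 of each group. The level tested is log2 of that signal minus log2 of the array's 75th percentile, so that a level of 0 is the 75th percentile and a difference of 1 is 2-fold. The brightest probe stood for each gene, and the levels of different probes cannot be set against each other. A gene was called when limma's adjusted p, over all 15414 genes, was under 0.05. Between 54.3% and 56.8% of mouse spots were well above background on the base-vector arrays, and between 56.8% and 59.7% on the IRF7 arrays. The introduced gene, Irf7, read 4486, 4963 and 5012 in the IRF7 cells, against 246, 195 and 210 in the base-vector cells, and was 19.4-fold higher (log2 change 4.28, SE 0.049, limma adjusted p = 3.05e-07).

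Krt7 was the keratin that differed most: it rose 6.17-fold in the IRF7 cells. The luminal keratins Krt8 and Krt18 and the mesenchymal filament gene Vim had scaled levels that differed between the groups by 1.11-fold or less on their brightest probes, and the basal keratin Krt17 fell 1.44-fold. Of the 7 tested genes 2 passed as higher, 1 as lower and 4 did not pass, so 42.9% were called where 61.0% of all 15414 genes were (31.9% as higher and 29.1% as lower). The share of these genes that was called is below the share of all genes. Their median log2 change was -0.06, beside 0.03 over all genes, and their median absolute log2 change was 0.21, beside 0.24. As a set they did not stand out, and what follows is about single genes.

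**Figure D1:**
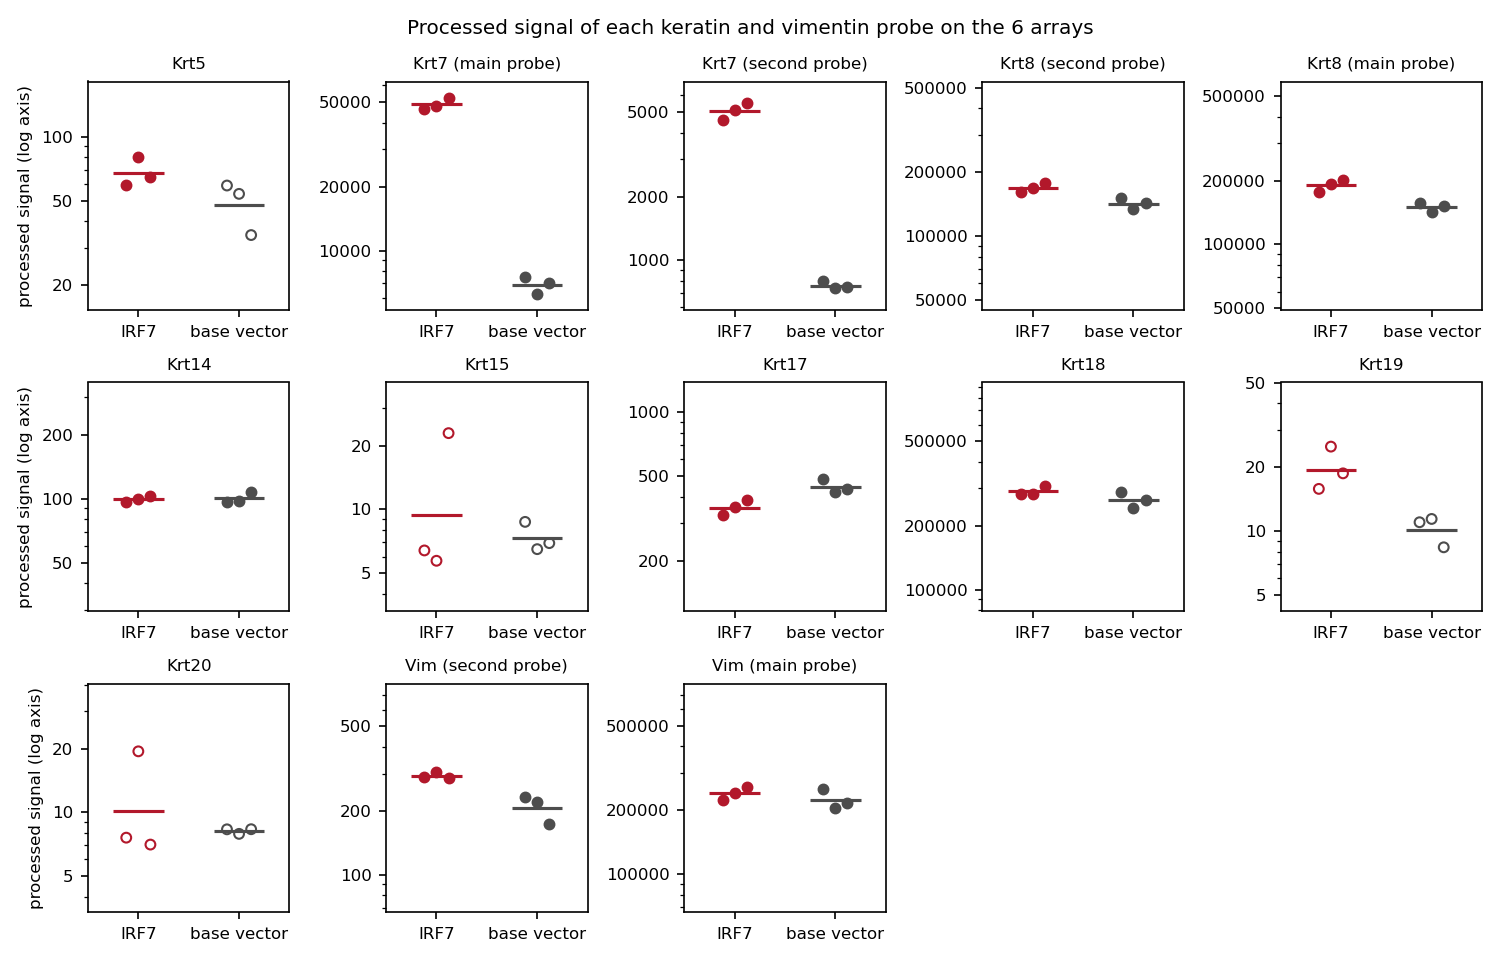
Processed signal (linear intensity on a log axis) of each of the 13 probes, with the 3 IRF7 arrays left of the 3 base-vector arrays in each panel. Points are arrays, bars are group means of the log values, and open points mark a group in which the probe was not well above background on all 3 arrays. Every panel spans the same number of fold, so that the gap at both Krt7 probes can be set beside the small gaps at Krt8, Krt18 and Vim, and Krt15, Krt19 and Krt20 are open in both groups.

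Krt7 encodes a type II keratin of simple and glandular epithelia. Its brightest probe read processed signals of 46651, 47914 and 52481 in the IRF7 cells, against 7539, 6232 and 7023 in the base-vector cells. All 3 IRF7 arrays lay far above all 3 base-vector arrays, and the spread within each group was small beside the gap. The level was 5.15 ± 0.04 in the IRF7 cells and 2.52 ± 0.07 in the base-vector cells (SD, n = 3 each), a log2 change of 2.63 (SE 0.047, 95% interval 2.51 to 2.74, limma adjusted p = 1.16e-06). Only 0.571% of the tested genes were higher in the IRF7 cells by as much or more, and 3.32% were called higher by at least 2-fold. In bulk RNA a larger share of cells with the transcript and more transcript per cell cannot be told apart.

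The second Krt7 probe, printed above, read 4612, 5120 and 5495 in the IRF7 cells, against 797, 737 and 749 in the base-vector cells. Its groups were as clearly separate as those of the first. It was 5.80-fold higher (log2 change 2.54, SE 0.036, limma adjusted p = 6.7e-07 in a fit of every probe on its own, in which 58.7% of probes passed). Both probes, 4454 bases apart, therefore gave nearly the same change, although one read far brighter than the other.

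Krt8 and Krt18 encode the type II and type I keratins that pair in simple epithelia. Krt8 read 177564, 192641 and 202024 on its brightest probe in the IRF7 cells, against 157082, 141895 and 151125 in the base-vector cells. The groups did not overlap, which held for 67.8% of all genes. The level was 7.11 ± 0.01 in the IRF7 cells and 6.96 ± 0.04 in the base-vector cells (SD, n = 3 each), a rise of 1.11-fold (log2 change 0.15, SE 0.032, limma adjusted p = 0.00982). That call ended when arrays were centred on their median in place of their 75th percentile (log2 change 0.11, limma adjusted p = 0.406). Without scaling the log2 change was 0.35 (limma adjusted p = 0.012), or 0.12 relative to the median of all genes, which was then 0.23.

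The other Krt8 probe, which carries the letters shared with Krt18, gave no call. It read 160961, 167694 and 178577 in the IRF7 cells, against 150923, 133414 and 142838 in the base-vector cells. After scaling its groups overlapped, with a log2 change of 0.05 (SE 0.034, 95% interval -0.04 to 0.13, limma adjusted p = 0.262). Only 1 of the 2 Krt8 probes, which lie 132 bases apart, passed on its own. Their mean passed with a log2 change of 0.10 (limma adjusted p = 0.0419).

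Krt18 read 283820, 282724 and 308495 in the IRF7 cells, against 287945, 242764 and 263342 in the base-vector cells. The highest base-vector array lay above the 2 lower IRF7 arrays, so the groups overlapped. The level was 7.72 ± 0.06 in the IRF7 cells and 7.78 ± 0.05 in the base-vector cells (SD, n = 3 each), a log2 change of -0.06 (SE 0.043, 95% interval -0.16 to 0.05, limma adjusted p = 0.302), whose sign turned with quantile normalization (0.05) and without scaling (0.14). Without scaling the median of all genes was itself 0.23, and relative to that median Krt18 stood at -0.08. Krt18 did not pass in either direction under any alternative tried.

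Krt19 encodes a small type I keratin that is another luminal marker. On all 6 arrays its probe stayed too dim to count as well above background, with readings of 15.8, 25 and 18.7 in the IRF7 cells, against 11, 11.4 and 8.38 in the base-vector cells. The IRF7 readings were all above the base-vector ones, but both groups lay where the array gives only an upper bound, so no fold is given. Krt15, a type I keratin of basal cells in stratified epithelia, read 6.41, 5.73 and 22.9 in the IRF7 cells, against 8.74, 6.5 and 6.94 in the base-vector cells. Krt20, a type I keratin of gut and bladder epithelium, read 7.6, 19.4 and 7.05 in the IRF7 cells, against 8.32, 7.92 and 8.33 in the base-vector cells. In both, 1 IRF7 array stood above the rest and the groups overlapped, and no array was well above background. These 3 genes were not tested.

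Among the basal keratins, Krt17, a type I keratin induced in wounded and growing epidermis, fell in the IRF7 cells, with readings of 329, 356 and 384, against 484, 419 and 437 in the base-vector cells. The highest IRF7 array lay below the lowest base-vector array, and all 6 arrays were well above background. The level was -1.96 ± 0.03 in the IRF7 cells and -1.43 ± 0.02 in the base-vector cells (SD, n = 3 each), a log2 change of -0.53 (SE 0.029, 95% interval -0.60 to -0.45, limma adjusted p = 4.32e-05). Without scaling the log2 change was -0.33 (limma adjusted p = 0.0218), or -0.55 relative to the median of all genes.

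Krt5 and Krt14 encode the type II and type I keratins that pair in basal cells. Krt5 read 59.1, 80.4 and 64.8 in the IRF7 cells, against 58.9, 53.8 and 34.4 in the base-vector cells, and was well above background on 3 IRF7 arrays and 2 base-vector arrays. On the scaled level the groups overlapped, since base-vector replicates 1 and 2 lay among the IRF7 arrays and replicate 3 lay apart. The log2 change was 0.30 (SE 0.21, 95% interval -0.22 to 0.82, limma adjusted p = 0.264), and 0.08 without base-vector replicate 3. The interval is the widest of the 7 genes.

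Krt14 read 96.5, 99.7 and 103 in the IRF7 cells, against 96.1, 97.1 and 108 in the base-vector cells. The raw signals were nearly alike, and the scaled levels of the 3 IRF7 arrays and base-vector replicate 1 lay together below base-vector replicates 2 and 3. The level was -3.79 ± 0.04 in the IRF7 cells and -3.58 ± 0.16 in the base-vector cells (SD, n = 3 each), a log2 change of -0.21 that did not pass (SE 0.083, limma adjusted p = 0.075). It passed without base-vector replicate 1 (-0.29, limma adjusted p = 0.00911). In that fit every IRF7 array was on slide 1 and every base-vector array on slide 2, so group and slide cannot be told apart. Krt14 also passed with normexp background correction (-0.20, limma adjusted p = 0.0268) and with slide as a random block (-0.24, limma adjusted p = 0.0364). Its log2 change was -0.01 without scaling, or -0.24 relative to the median of all genes.

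Vim was read by 2 probes that disagreed. The brightest read 224317, 241768 and 256082 in the IRF7 cells, against 252758, 204017 and 217157 in the base-vector cells. The signals overlapped, but after scaling every IRF7 array lay just below every base-vector array, at 7.44 ± 0.01 in the IRF7 cells and 7.54 ± 0.07 in the base-vector cells (SD, n = 3 each). The log2 change was -0.10 and did not pass (SE 0.042, 95% interval -0.20 to 0.01, limma adjusted p = 0.0974), and its sign turned with quantile normalization (0.05), without scaling (0.10) and with the mean of both probes (0.11). Relative to the median of all genes, the unscaled log2 change was -0.12.

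The second Vim probe read 288, 306 and 287 in the IRF7 cells, against 232, 220 and 173 in the base-vector cells. Here the IRF7 arrays all lay above the base-vector arrays, the opposite order to the first probe. The log2 change was 0.31 (SE 0.11, 95% interval 0.04 to 0.58), and it did not pass (limma adjusted p = 0.0533). This probe was designed on another transcript record than the first and lies 5466 bases away. What separates the readings of the 2 probes was not tested.

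**Figure D2:**
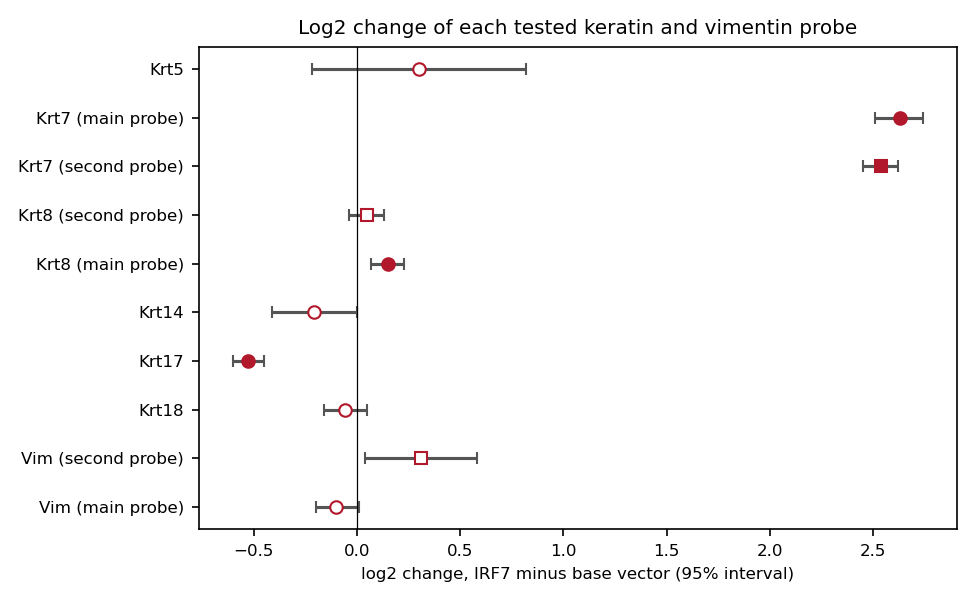
Log2 change (IRF7 minus base vector, horizontal axis) of each of the 10 tested probes of the 7 genes, with 95% intervals from limma. Circles are the brightest probe of a gene and squares second probes, and filled symbols passed an adjusted p of 0.05. Both Krt7 probes lie near 2.6, Krt17 lies at -0.53, and the intervals of Krt5, Krt18, the second Krt8 probe and the brightest Vim probe span 0.

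Slide and scan date were the technical groupings taken from the array files, and they split the arrays alike. What is said of slide holds for scan date too. The 3 IRF7 arrays and base-vector replicate 1 were on slide 1, and base-vector replicates 2 and 3 on slide 2, so both a fit with slide as a fixed block and slide 1 alone take the change from 1 base-vector array and are 1 check. In that check the log2 change was 2.60 for Krt7 (limma adjusted p = 7.14e-05 with the block), -0.54 for Krt17 (0.00121) and 0.18 for Krt8 (0.0325), each past the threshold. The lone base-vector array has no spread of its own here: the spread comes from the other arrays in the fit, and that array is assumed to vary like them. Krt5 was at 0.10, Krt14 at -0.04 and Krt18 at -0.08, and none of them passed. Vim was at -0.17, past the threshold under the same assumption (limma adjusted p = 0.0412 with the block and 0.0365 on slide 1). It also passed without base-vector replicate 2 (-0.13, limma adjusted p = 0.0357).

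**Figure D3:**
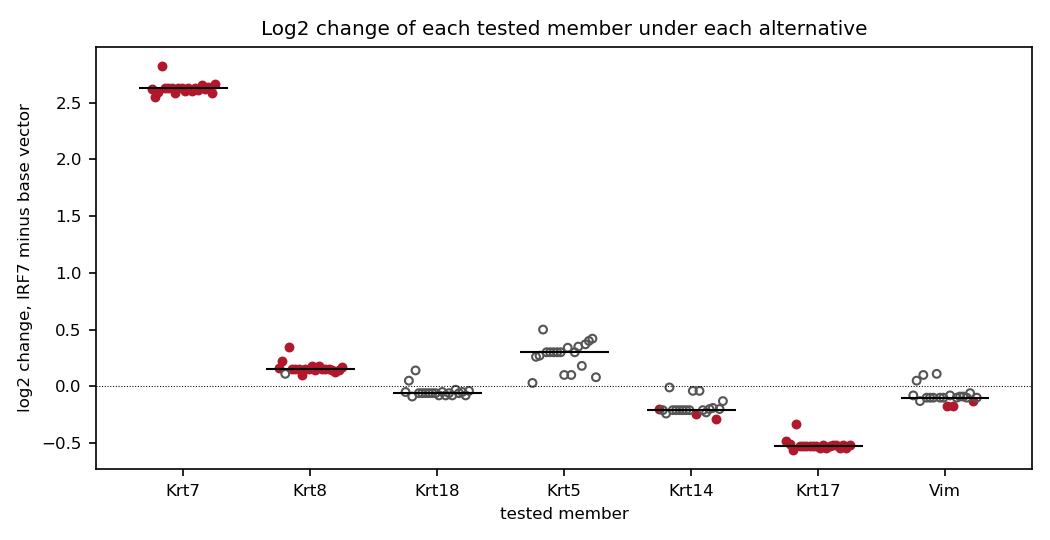
Log2 change (IRF7 minus base vector, vertical axis) of the 7 tested genes under every alternative that could be computed for each, with a bar at the value reported. Filled points passed an adjusted p of 0.05. Krt7 ran from 2.55 to 2.82 and Krt17 from -0.56 to -0.33, filled throughout, whereas Krt18 (-0.09 to 0.14) and Vim (-0.17 to 0.11) lay on both sides of 0.

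Because keratins work in pairs, the difference between the levels of 2 genes was also taken within each array. That removes any scaling that shifts all log2 levels of an array alike. Quantile normalization is not such a shift, and with it the change of Krt7 minus Krt18 was 2.49 in place of 2.68. The size of such a difference depends on the probes and has no meaning of its own. Only its change between the groups was compared. With 3 arrays a group, the exact two-sided permutation test cannot go below p = 0.1, so no pair could pass. Of 5 pairs planned, 4 could be measured, since Krt19 was not above background.

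Krt7 minus Krt18 was -2.60, -2.56 and -2.56 in the IRF7 cells, against -5.26, -5.28 and -5.23 in the base-vector cells. The groups were far apart, and Krt7 had gained 2.68 on the log2 scale relative to Krt18, its possible type I partner (exact permutation p = 0.1, adjusted over the 4 pairs 0.2). Krt8 minus Krt18 was -0.68, -0.55 and -0.61 in the IRF7 cells, against -0.87, -0.77 and -0.80 in the base-vector cells. These groups did not overlap either, by a change of 0.20 (exact permutation p = 0.1, adjusted 0.2).

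Krt5 minus Krt14 averaged -0.56 ± 0.22 in the IRF7 cells and -1.07 ± 0.51 in the base-vector cells (SD, n = 3 each). The groups overlapped, and the change of 0.51 was no larger than the spread in the base-vector cells (exact permutation p = 0.2, adjusted 0.267). Krt18 minus Vim averaged 0.28 ± 0.06 in the IRF7 cells and 0.24 ± 0.05 in the base-vector cells (SD, n = 3 each). Its change of 0.04 was smaller than either SD (exact permutation p = 0.5, adjusted 0.5). With the mean of both Vim probes it was -0.16.

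**Figure D4:**
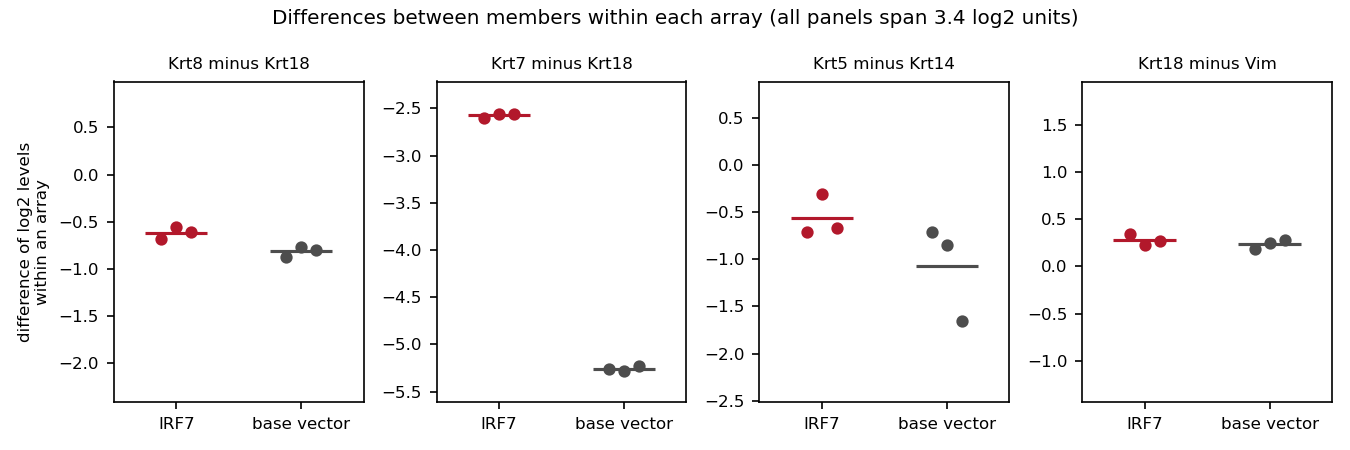
Difference between the log2 levels of 2 genes within each array (vertical axis, the same span in every panel), with the 3 IRF7 arrays left of the 3 base-vector arrays and bars at the group means. Krt7 minus Krt18 lies between -2.60 and -2.56 in the IRF7 cells and between -5.28 and -5.23 in the base-vector cells, and the other pairs differ far less.

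The genes whose profile over the 6 arrays was most like that of Krt7 were Dhx58, a regulator of the cytosolic sensors of viral RNA (log2 change 2.64), Cmpk2, a mitochondrial nucleotide kinase induced by interferon (2.59), and Cgref1, a calcium-binding protein of cell growth (2.59). Their root mean square differences from the Krt7 profile, each profile centred on its own mean, were 0.035, 0.0366 and 0.0369 on the log2 scale. With 2 groups such likeness is mostly an equal size of change. None of the 3 is on chromosome 15. Of the 37 other tested genes within 1 Mb of Krt7, 12 were called higher and 11 lower, with a median log2 change of 0.01 and a range of -0.76 to 1.34, so Krt7 lay above every one of them. Around Krt17, 51 other tested genes had a median of -0.01 and a range of -4.28 to 2.64, with 13 called higher and 16 lower. That range runs far below the -0.53 of Krt17 itself. Both counts stand beside 61.0% of all genes called, 31.9% as higher and 29.1% as lower.

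Of 39 other intermediate filament genes listed, 35 had a probe, 18 of these were near background on every array, and 13 were tested: 5 were called higher, 4 lower and 4 did not pass, with a median log2 change of 0.09 beside 0.03 for all genes. Here and in the lists that follow, the counts stand beside the 61.0% of all genes that were called (31.9% higher, 29.1% lower), and nothing particular to a list is read from them. Krt80, a type II keratin, read 289, 326 and 343 in the IRF7 cells, against 136, 118 and 119 in the base-vector cells, and rose by 1.16 (SE 0.033, limma adjusted p = 4.76e-06). Among the keratins listed here that were tested, Krt7 and Krt80 alone were called higher by more than 2-fold. The type I keratin Krt23 fell by 0.71 (SE 0.043), Krt10, a type I keratin of differentiating epidermis, rose by 0.57 (SE 0.049), and Synm, a filament protein that binds vimentin and desmin, fell by 0.45 (SE 0.056), by 0.42 on its second probe.

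Of 15 genes listed as filament linkers or filament-binding proteins, 14 were tested. Of these 7 were called higher, 5 lower and 2 did not pass, with a median log2 change of 0.23. Dsp and Eppk1, both called higher, were above background on the IRF7 arrays alone, and the count and median include them. Dsp, which anchors keratins at desmosomes, could not be told from background in the base-vector cells, and its level in the IRF7 cells was higher by at least 13-fold, or at least 5.06-fold on a second probe. The 2 remaining Dsp probes stayed near background on all 6 arrays. These bounds compare the IRF7 level with the lowest signal that counted as well above background. Pkp2, a plaque protein of desmosomes, rose by 0.64 (SE 0.037), whereas Jup, the plaque protein plakoglobin, fell by 0.78 (SE 0.040). Plec, the linker plectin, rose by 1.40 on its brightest probe (SE 0.027), while 4 other probes of that gene read between 0.03 and 0.49.

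Of 22 listed transcription regulators of the epithelial and mesenchymal states, 15 were tested. Of those, 8 were called higher, 2 lower and 5 did not pass, with a median of 0.18. Grhl2 and Zeb1, both called higher, were above background on the IRF7 arrays alone. Klf4, a zinc finger factor of epithelial barrier cells, rose by 1.30 (SE 0.037), and Twist1, a factor of mesenchymal cells, by 0.53 (SE 0.063). Zeb1, which represses genes of epithelial junctions, was higher by at least 3.15-fold against a base-vector signal near background, and Elf3, an epithelial ETS factor, fell by 0.77 (SE 0.056). Whether any of these factors bears on the keratins was not tested.

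**Figure D5:**
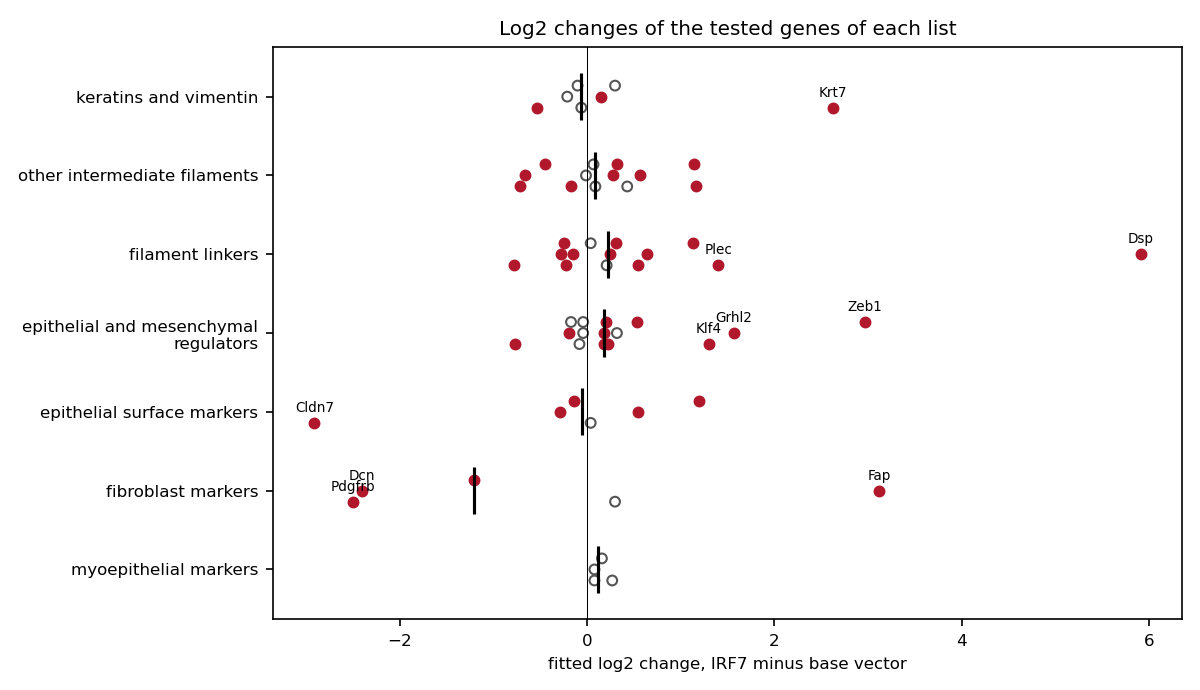
Fitted log2 change (IRF7 minus base vector, horizontal axis) of the tested genes of each list, filled where the adjusted p was under 0.05, with a bar at the list's median. Krt7 stands alone at 2.63 in the top list, and the values of Dsp, Eppk1, Grhl2, Zeb1, Cldn7, Dcn and Pdgfrb are fitted to a group whose signal lay near background, so their size is not measured. Krt1, Bfsp2, Ovol2 and Fap were above background on 1 of 3 base-vector arrays, Krt5 and Col1a2 on 2, and Sox10 on 2 IRF7 arrays and 1 base-vector array.

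The epithelial label of the line was checked by which surface markers were above background. Of 8 such markers 6 were tested, beside Krt8 and Krt18, and Cldn4 and Muc1 stayed near background on every array. Of the 6 tested, 2 were called higher, 3 lower and 1 did not pass. The adhesion molecule Epcam rose by 1.2 (SE 0.17) and the protease gene St14 by 0.54 (SE 0.035), though 0.26 and not passing on a second probe. The claudin Cldn3 fell by 0.29 (SE 0.053), and Cldn7 was lower by at least 4.67-fold, with an IRF7 signal near background. E-cadherin, Cdh1, read 222, 245 and 267 in the IRF7 cells, against 224, 190 and 207 in the base-vector cells, and did not pass (log2 change 0.04, SE 0.040, limma adjusted p = 0.406).

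Vimentin is shared with fibroblasts, so markers of those cells stand beside it. Of 9, 5 were tested: 3 were called lower, 1 higher and 1 did not pass, and Col1a1, Lum and Thy1 stayed near background on every array. Their summed signal, over the brightest probe of each gene, was 3486 to 3961 in the IRF7 cells and 6619 to 7434 in the base-vector cells, nearly all of it from Pdgfra, a growth factor receptor that fell by 1.21 (SE 0.030). Pdgfrb and Dcn, above background on the base-vector arrays alone, were lower by at least 2.84-fold and 3.1-fold. Fap, a fibroblast protease, read 259, 317 and 274 in the IRF7 cells, against 20.7, 68.9 and 15.9 in the base-vector cells. It was called higher, but only 1 base-vector array was above background, so the size is not given. Its second probe was higher by at least 1.17-fold. Both groups were pooled clones of 4T1.2 grown in culture, so these are marker genes read in that line. No share of other cells was measured. Of 7 myoepithelial and smooth muscle markers, which basal mammary cells share, 4 were tested and none passed, with a median of 0.12. Their summed signal was 32867 to 35966 in the IRF7 cells and 27029 to 28986 in the base-vector cells. Neither this sum nor that of the fibroblast markers is scaled between arrays. The 75th percentile used for scaling was itself 1293 to 1458 on the IRF7 arrays, against 1148 to 1291 on the base-vector arrays. After scaling, the brightest myoepithelial and smooth muscle markers, Acta2 and Actg2, each had a log2 change of 0.08 and did not pass. Of 5 milk protein genes of secretory luminal cells, 2 were tested and neither passed. Of 5 endothelial markers 1 was tested and called higher (Cdh5, a cadherin of vessel walls, at 1.06), of 7 myeloid markers 3 were tested and 1 called higher (Cd14, a receptor for bacterial lipid, at 0.38), and of 5 lymphocyte markers 2 were tested and neither passed.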

How the data were processed

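Per the file headers, the authors' scanner files hold 1 colour (Cy3) and were made with Agilent Feature Extraction 9.5.3.1. The deposited processed signal is a linear intensity, with background removed on each array and no scaling to other arrays. The authors' value table was identical to it (largest difference 0) and served as the unscaled alternative. Control spots (1639) and 111 to 121 outlier spots per array were left out. No spot of the genes studied was saturated.

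Groups came from the sample titles. The level was log2 intensity minus log2 of the 75th percentile in the deposited header (1148 to 1458). Probes had to be marked well above background by the scanner software on 3 or more of the 6 arrays (23514 of 41174 were), and the probe of highest mean signal stood for a gene. Names came from accessions and symbols in RefSeq (GRCm38.p6, names only): 22951 probes matched by accession, 6659 by symbol and 3109 by older symbol, and 8455 kept the file's name. The test was limma 3.58.1 in R 4.3.3 (lmFit, eBayes, no block, 4 residual and 1.64 prior degrees of freedom). It was Benjamini-Hochberg adjusted over 15414 genes with a threshold of 0.05. Second probes come from the same fit over all 23514 probes. The code was also run on simulated arrays with few changed genes and no slide effect, so that run does not measure the error rate of these data.

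A group with no array so marked gives only a bound on the fold, taken against the higher of its own signal and the lowest signal well above background. The number of arrays limits the precision. The genes studied and the lists were chosen with earlier results of these data known. Named beside them were up to 4 called genes per list with the smallest p, defining epithelial markers and the 3 genes most like Krt7. Alternatives are given in the closing section.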

Additional observations from a re-analysis of the deposited data

How the results depend on the processing

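Over 20 alternatives, Krt7 ran from 2.55 to 2.82, Krt17 from -0.56 to -0.33 and Irf7 from 3.93 to 4.48, all past the threshold. Leaving out 1 array gave 4.24 to 4.32 for Irf7 and 2.58 to 2.66 for Krt7. For Krt8 it gave 0.13 to 0.17 and for Krt17 -0.54 to -0.52. Without base-vector replicate 1, group and slide coincide. Krt18 turned with quantile normalization (0.05) and without scaling (0.14), and Vim did so with these (0.05 and 0.10) and with the mean of its probes (0.11), where Krt18 minus Vim was -0.16. The cause was not tested. Keratin and vimentin genes called lower were 2 with normexp, slide as a fixed or random block and slide 1 alone, and 1 to 2 with an array left out. Keratin and vimentin genes called higher were 1 with median centring, which loses Krt8, and 3 with no filter on dim probes. Genes called higher were 2820 with median centring and 4297 to 4959 with an array left out. Genes called lower were 1702 without scaling, 9723 with no filter (27667 genes tested) and 3973 to 4278 with an array left out. Of called genes 52.3% were higher, against 79.1% without scaling and 32.8% with no filter. The shared replicate numbers were not taken to pair the arrays: deviations of same-numbered arrays correlated at 0.054, 0.182 and 0.23, although each correlated best with its own number. With the replicate block, 9742 genes were called in place of 9403, and Krt7 stayed at 2.63, Krt8 at 0.15 and Krt17 at -0.53. Dim signals limit Krt5, Krt15, Krt19 and Krt20.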
